A study of Homo sapiens with 34 samples.

Results

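Gene expression was compared between CD43+ and CD43- cells sorted on day 6 of the haematopoietic differentiation of H1 human embryonic stem cells. The 6 samples, 3 of each population, were taken by their labels from the 34 samples of the series. Of the 20255 genes in the expression table, 19788 passed the filter on low values and were tested. H1 is an established line of pluripotent cells. It was differentiated in embryoid bodies and then in a planar culture, first with BMP4 and VEGF and then with VEGF as the only growth factor (from day 3 by the labels, and earlier by the methods), with no exogenous haematopoietic cytokine at any time. The CD43+ and the CD43- samples therefore share the cell line, the medium and the day, and they differ in the presence of 1 surface protein on the sorted cells. The methods describe the 3 replicates of each population as independent biological replicates. Both groups are bulk populations of 1 cell line: a lower value can come from fewer cells of a type or from less RNA per cell, and these cannot be told apart.

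CD43, or leukosialin, is the heavily glycosylated sialomucin encoded by SPN. In cultures of human pluripotent stem cells it appears on emerging blood cells before the leukocyte phosphatase CD45, encoded by PTPRC. The earliest blood cells of the embryo arise in the yolk sac, where the primitive wave yields nucleated erythroblasts with embryonic globins, megakaryocytes and macrophages. GATA1, TAL1, LMO2, RUNX1 and their partners are transcription factors of this lineage, and the mesoderm from which it arises also gives endothelium, mesenchyme and, in neighbouring territories, heart muscle.

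The deposited values were read counts that the authors had normalised for GC content. When each sample was sorted by value, the 34 lists were identical, with 10 genes at the highest value of 90700 in every sample. A value therefore gives close to a rank of the gene within its sample. Differences of the most abundant genes are compressed at this ceiling, and the sequencing depth behind a value is unknown. All differences below are log2 differences, CD43+ minus CD43-, of value + 1, with the standard error (SE) of the fit. A gene was called where its adjusted p was below 0.05 and its difference exceeded 4-fold. A number with 2 decimals printed after the values of a gene, or in parentheses after its name, is this log2 difference. Where a gene was listed at 0 in all samples of a population, its values are given without a fold, and it enters list medians with the pseudocount of 1. Sample values are given in the order of the replicate numbers. Pearson's r between replicates of log2 values over all genes was 0.965 to 0.984 in CD43- and 0.982 to 0.985 in CD43+ cells, as a description across genes, which are not independent replicates. The summed values of gene lists varied between the CD43- replicates. The values of 29 endothelial genes summed to 302727, 161085 and 65859 in the CD43- replicates, and those of 26 mesenchymal and matrix genes to 523067, 556258 and 649157. In CD43+ replicates the same sums were 78534, 65782 and 86037 for the endothelial and 104560, 130254 and 242199 for the mesenchymal genes. The part of this spread in the results was not tested, and calls that depend on a single sample are given as such.

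The sorted protein was checked first. SPN measured 28, 19 and 49 in CD43- and 8780, 6791 and 5979 in CD43+ cells, a difference of 7.85 ± 0.37 (SE), with an adjusted p of 5.46e-15. The 2 populations were thus separated at the RNA level of the sorted protein. PTPRC was near the lower end of the table in both, at 0, 0 and 2 in CD43- and 8, 1 and 0 in CD43+ cells, and was not called (0.86, or -0.03 without CD43+ replicate 1). No day 6 sample had a PTPRC value above 8.

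In all, 2481 genes were called, which is 12.5% of the genes tested. Of these, 928 were higher in CD43+ cells (4.69%) and 1553 were lower (7.85%). The 3 values of one population all lay above those of the other for 56.8% of all genes tested, and for 913 of those called higher (928) and 1477 of those called lower (1553). Among the higher genes, 80 were listed at 0 in all CD43- samples, and 92 of the lower genes were listed at 0 in all CD43+ samples. The median difference over all genes tested was 0.14, and it became 0.00 after median-of-ratios scaling of the samples. List medians below are to be read against it. The genes with the largest rises among those without overlap included HBE1, HBA2, HBG2, GYPE, GYPB, ALAS2, GATA1, RHAG, HBZ, HDC and PKLR, which are mostly genes of red cells. Those with the largest falls included POSTN, RSPO2, DCN, ADAMTS18, LUM, CDX2, ESRP1, SLN, RSPO1, PAMR1 and C5orf66-AS1, several of which encode matrix or secreted proteins.

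**Figure D1:**
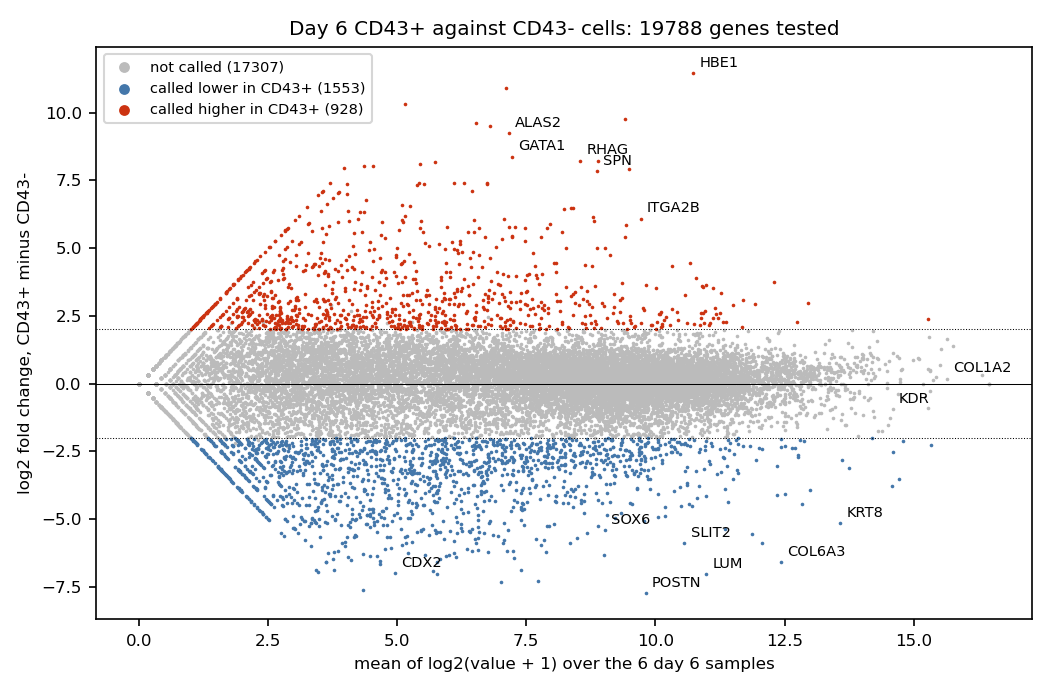
Each point is 1 of the 19788 genes tested on day 6. The x axis is the mean log2(value + 1) over the 6 samples and the y axis the log2 difference CD43+ minus CD43-, with the 928 higher and the 1553 lower genes in colour. The largest rises are larger than the largest falls, and the called genes span most of the range of mean values.

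All 10 haemoglobin genes were called higher in CD43+ cells, with a median difference of 7.99. The study had named this list on the same samples, so its direction is not independent evidence. The embryonic β-like gene HBE1 measured 32, 26 and 36 in CD43- and 90700, 90700 and 90700 in CD43+ cells, so that every CD43+ sample reached the ceiling and the difference of 11.47 ± 0.67 (SE) is compressed. The embryonic α-like gene HBZ measured 32, 22 and 26 in CD43- and 10426, 9485 and 5476 in CD43+ cells, a difference of 8.22 ± 0.85 (SE). In both cases the CD43- values were close to the lower end of the table and the groups were far apart. HBG2, which encodes a fetal γ chain, measured 22, 22 and 22 in CD43- and 25836, 20394 and 15842 in CD43+ cells (9.78). Its near-identical copy HBG1 measured 196, 136 and 71 in CD43+ and 1, 0 and 0 in CD43- cells. HBA1, an α chain gene that is used from the embryo on, measured 40, 50 and 46 in CD43- and 13998, 11498 and 8964 in CD43+ cells (7.94). Reads of HBG1 and HBG2, and of HBA1 and HBA2, can be split between the copies by the counting, so the members of each pair are uncertain as single genes. The annotated spans of HBG2 (chr11:5248274-5645789) and HBE1 (chr11:5268345-5505617, both GRCh38) also overlap. HBB, the adult β chain gene, was listed at 0 in all CD43- samples and measured 110, 104 and 63 in CD43+ cells. HBA2 (1814, 1420 and 794) and the α-like gene HBM (121, 70 and 32) were likewise at 0 in all CD43- samples. The δ chain gene HBD measured 682, 296 and 178 in CD43+ and 1, 0 and 0 in CD43- cells (8.04), and the θ chain gene HBQ1 398, 366 and 332 in CD43+ and 4, 2 and 3 in CD43- cells (6.54). CD43+ replicate 3 had the lowest value of 9 of the 10 genes, while HBE1 was tied at the ceiling.

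Genes of haem synthesis moved unevenly. ALAS2, the erythroid 5-aminolaevulinate synthase that starts the pathway, measured 6, 6 and 3 in CD43- and 3748, 4028 and 2876 in CD43+ cells, a difference of 9.24 ± 0.51 (SE) with an adjusted p of 1.06e-13. Its housekeeping counterpart ALAS1 measured 508, 490 and 381 in CD43- and 447, 466 and 435 in CD43+ cells, and its groups overlapped (-0.02). CPOX, coproporphyrinogen oxidase, was higher by 2.20 (846, 788 and 771 in CD43- and 3167, 3990 and 3945 in CD43+ cells). ABCB6, a mitochondrial and plasma membrane porphyrin transporter, was higher by 2.24 (348, 360 and 472 in CD43- and 1917, 1976 and 1655 in CD43+ cells). These 3 were the called members of 14, with a list median of 1.31. The decarboxylase gene UROD was just under the 4-fold limit (1.98, and 2.04 or 2.07 and called without CD43+ or CD43- replicate 3), followed by PPOX (1.64) and FECH (1.66), the last enzymes of the pathway. In 12 of the 14 genes all CD43+ values lay above all CD43- values, as they did in 33.9% of all genes tested.

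Iron handling genes had 4 of 17 members called, all higher, with a median of 0.67. TFR2, the second transferrin receptor, measured 18, 20 and 27 in CD43- and 643, 560 and 474 in CD43+ cells (4.64). SLC25A37, or mitoferrin, which carries iron into mitochondria, measured 744, 798 and 777 in CD43- and 7637, 8088 and 7780 in CD43+ cells (3.34). TFRC, the transferrin receptor, measured 888, 939 and 1426 in CD43- and 11495, 7476 and 5775 in CD43+ cells (2.90). All CD43+ values of these genes lay above the CD43- values, also for the endosomal ferrireductase STEAP3 (3.13). The ferritin chain genes FTH1 (0.93) and FTL (0.28) were not called, and neither was the iron exporter gene SLC40A1 (-1.37).

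The 250 bases before the start site were examined for the letters AGATAA, read as TTATCT on the other strand, which GATA factors bind. They were present in 5.62% of the 12961 promoters matched to RefSeq by gene ID, or else by symbol. Among the matched promoters the share was 12.75% for higher genes (65 of 510) and 7.77% for the 1029 of lower genes. The letters CCACACCC, bound by KLF1, were in 2.9% of all promoters, 3.73% of those of higher genes and 3.01% of those of lower genes. In the same order TGTGGT, bound by RUNX1, was in 8.23%, 10.59% and 8.75%. TGACTCA, bound by AP-1, was in 2.96%, 4.12% and 3.98%, and CACGTG, an E-box, in 8.36%, 6.67% and 5.93%. Both strands were searched for each. A match is a description of the letters and not a bound site. The promoters of 5 higher genes that hold AGATAA or its complement are shown because these genes serve haem and globin synthesis, the red cell membrane and transcription. HBD encodes the δ chain, EPB42 the membrane protein 4.2 and TAL1 a partner of GATA1. Sequences are on GRCh38.p14, from 250 bases upstream to the base before the start site, 5′ to 3′ on the gene's strand, with the matching letters in capitals. Their first base lies at -127 from the start of ALAS2 and at -78 in HBD, at -208 and -61 in EPB42, at -207 and -125 in CPOX, and at -35 in TAL1.

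ALAS2 (chrX:55030978-55031227, minus strand): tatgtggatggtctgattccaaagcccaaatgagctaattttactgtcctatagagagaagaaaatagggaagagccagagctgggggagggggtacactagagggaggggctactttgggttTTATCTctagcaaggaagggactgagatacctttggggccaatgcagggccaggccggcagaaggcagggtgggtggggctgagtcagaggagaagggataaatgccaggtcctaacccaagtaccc
HBD (chr11:5234484-5234733, minus strand): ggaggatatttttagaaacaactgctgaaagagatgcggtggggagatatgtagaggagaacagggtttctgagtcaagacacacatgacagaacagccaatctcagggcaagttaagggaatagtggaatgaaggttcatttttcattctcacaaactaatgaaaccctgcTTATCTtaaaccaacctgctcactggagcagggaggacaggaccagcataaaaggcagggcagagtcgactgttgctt
EPB42 (chr15:43221019-43221268, minus strand): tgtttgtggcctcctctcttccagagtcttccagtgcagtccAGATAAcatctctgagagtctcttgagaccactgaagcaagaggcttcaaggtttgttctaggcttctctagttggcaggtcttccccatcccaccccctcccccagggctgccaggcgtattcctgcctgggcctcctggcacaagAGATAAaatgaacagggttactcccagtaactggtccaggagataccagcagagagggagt
CPOX (chr3:98593612-98593861, minus strand): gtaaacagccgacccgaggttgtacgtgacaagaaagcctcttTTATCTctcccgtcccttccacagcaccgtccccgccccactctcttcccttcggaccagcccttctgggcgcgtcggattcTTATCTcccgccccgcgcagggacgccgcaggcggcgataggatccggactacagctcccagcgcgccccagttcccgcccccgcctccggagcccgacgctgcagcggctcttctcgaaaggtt
TAL1 (chr1:47232336-47232585, minus strand): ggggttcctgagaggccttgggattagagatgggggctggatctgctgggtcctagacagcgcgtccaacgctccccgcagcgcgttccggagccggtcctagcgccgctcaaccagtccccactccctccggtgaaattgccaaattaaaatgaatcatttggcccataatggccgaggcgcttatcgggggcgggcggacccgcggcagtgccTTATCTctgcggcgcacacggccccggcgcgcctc

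Of 26 genes of the erythrocyte membrane and blood groups, 15 were higher and 2 lower, with a median of 2.98. The glycophorin gene GYPE measured 0, 6 and 4 in CD43- and 2850, 2680 and 2238 in CD43+ cells, a difference of 9.62 ± 0.58 (SE) with an adjusted p of 6.11e-13, and GYPB measured 4, 6 and 1 in CD43- and 3246, 3262 and 2500 in CD43+ cells, also without overlap. The glycophorin genes are near-identical copies, so their shares of the reads are uncertain. RHAG, the Rh-associated glycoprotein, measured 16, 30 and 18 in CD43- and 5898, 7320 and 6242 in CD43+ cells (8.23). Its partners of the Rh complex, RHCE (3.76) and RHD (2.64), were also called and are close copies of each other. Components of the membrane skeleton and its anchors rose together. ANK1, ankyrin, measured 72, 32 and 13 in CD43- and 2178, 1819 and 1792 in CD43+ cells (5.90), and SPTB, a spectrin gene, was higher by 2.60. SLC4A1, the anion exchanger band 3, was listed at 0 in all CD43- samples and measured 80, 96 and 48 in CD43+ cells. EPB42 measured 171, 212 and 136 in CD43+ and 0, 0 and 1 in CD43- cells (7.09). Of the remaining blood group genes, XK (5.79), KEL (3.32) and ERMAP (3.56) were higher. The 2 lower members were AQP1, a water channel also found in endothelium, at 2040, 1719 and 5312 in CD43- and 298, 302 and 269 in CD43+ cells (-3.19), and the glucose transporter gene SLC2A1 (-2.38), whose difference was -1.97 and not called without CD43- replicate 3.

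Among 17 genes of erythroid cytoplasmic proteins, 8 were higher and 1 lower, with a median of 1.05. PKLR, which encodes the pyruvate kinase of red cells and liver, measured 2, 1 and 2 in CD43- and 806, 824 and 570 in CD43+ cells (8.11). CAT, catalase, measured 194, 180 and 162 in CD43- and 2474, 2310 and 2310 in CD43+ cells (3.72). BLVRB, biliverdin reductase B, was higher by 2.78. Carbonic anhydrase CA1 and the α chain chaperone AHSP were listed at 0 in all CD43- samples, and measured 136, 202 and 88 and 30, 24 and 13 in CD43+ cells. Both were thus at the low end of the table where they were detected. BPGM, the bisphosphoglycerate mutase, was 402, 336 and 269 in CD43- and 318, 288 and 322 in CD43+ cells and not called (-0.10). The lower member was the lipoxygenase gene ALOX15 (-2.35, or -1.81 and not called without CD43- replicate 3).

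The 10 haematopoietic transcription factors of the study's list were all higher in CD43+ cells, with differences from 2.18 to 8.38. The study chose them on these samples. GATA1, the master regulator of erythroid and megakaryocytic genes, measured 10, 6 and 6 in CD43- and 2865, 2616 and 2677 in CD43+ cells, a difference of 8.38 ± 0.62 (SE) with an adjusted p of 2.37e-11. SPI1, or PU.1, the regulator of myeloid genes, measured 10, 8 and 5 in CD43- and 1553, 1247 and 1332 in CD43+ cells (7.35). Each of these factors was close to absent from the CD43- samples. GFI1B, a repressor of the erythroid and platelet lineages, measured 8, 2 and 7 in CD43- and 1254, 798 and 1082 in CD43+ cells (7.42). Its relative GFI1 measured 48, 40 and 22 in CD43- and 3346, 3301 and 3047 in CD43+ cells (6.49), and MYB, which sustains progenitor growth, 166, 105 and 62 in CD43- and 4504, 4652 and 4148 in CD43+ cells (5.42). The other five had substantial values in both populations. RUNX1 measured 765, 750 and 322 in CD43- and 6910, 6575 and 7899 in CD43+ cells (3.64). GATA2 measured 1379, 1114 and 960 in CD43- and 10075, 9886 and 9230 in CD43+ cells (3.09), and TAL1 1230, 883 and 582 in CD43- and 6335, 5979 and 5760 in CD43+ cells (2.81). LYL1 (742, 648 and 421 in CD43- and 2574, 2518 and 2912 in CD43+ cells, 2.18) and LMO2 (1700, 1096 and 514 in CD43- and 4718, 4544 and 4154 in CD43+ cells, 2.18) had the smallest differences, and without CD43- replicate 3 these were 1.94 and 1.71 and not called. In all 5 of these genes CD43- replicate 3 held the lowest value.

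Of 18 erythroid and megakaryocytic cofactors, 4 were called and all were higher, with a list median of 0.42. KLF1, the activator of adult β globin and of many red cell genes, measured 20, 34 and 44 in CD43- and 3108, 2804 and 2530 in CD43+ cells (6.45). NFE2, which acts at globin control regions and in platelets, measured 25, 38 and 40 in CD43- and 3268, 3002 and 3123 in CD43+ cells (6.50). CBFA2T3, a corepressor of the TAL1 complex, measured 58, 38 and 68 in CD43- and 1870, 1592 and 1821 in CD43+ cells (5.02), and IKZF1, or Ikaros, was higher by 4.45. The GATA1 partner ZFPM1 was near the limit (344, 356 and 292 in CD43- and 1222, 1316 and 1344 in CD43+ cells, 1.97) and was called when CD43+ replicate 1 or CD43- replicate 1 or 2 was left out (2.0 to 2.02). By contrast FLI1 (3302, 2210 and 1192 in CD43- and 2847, 2487 and 3377 in CD43+ cells) and ERG (3481, 2182 and 797 in CD43- and 929, 769 and 1008 in CD43+ cells), ETS factors shared by endothelium and blood, were not called.

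Among 13 regulators of globin switching, 2 were called, both lower in CD43+ cells, beside 12.5% of all genes called and 7.85% called lower. The list median was 0.14, equal to that of all genes tested. SOX6, a repressor of embryonic globin genes, measured 3036, 2918 and 4432 in CD43- and 90, 85 and 64 in CD43+ cells, a difference of -5.41 ± 0.33 (SE) with an adjusted p of 5.95e-13. HMGA2, a chromatin protein of the fetal programme, measured 14688, 22847 and 9902 in CD43- and 1684, 1786 and 2028 in CD43+ cells (-3.03). BCL11A, the repressor of γ globin, was low in both populations at 68, 49 and 71 in CD43- and 28, 20 and 14 in CD43+ cells (-1.59, not called). LIN28B, which maintains fetal features, measured 2998, 3860 and 5316 in CD43- and 4155, 4294 and 4613 in CD43+ cells and overlapped between the groups.

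**Figure D2:**
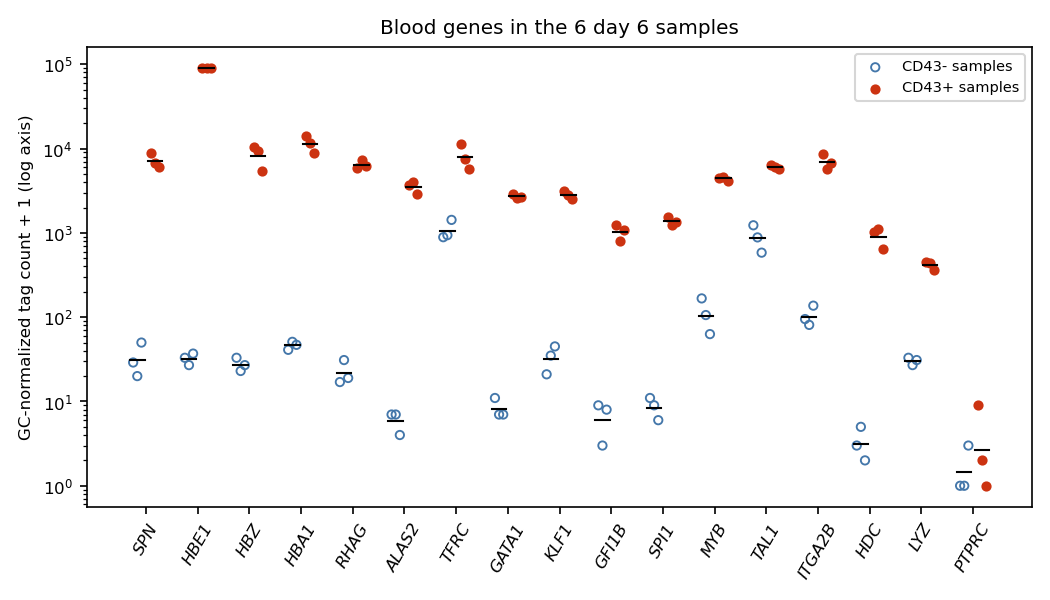
Deposited values + 1, on a log axis, of 17 genes in the 3 CD43- and 3 CD43+ samples of day 6. Points are samples and bars are means of the log2 values. GATA1 sits between 6 and 10 in CD43- and between 2616 and 2865 in CD43+ samples as deposited values, while PTPRC does not exceed 8 in any sample.

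Megakaryocyte and platelet genes followed. Of 24, 12 were higher and 2 lower, with a median of 2.40. Both chains of the fibrinogen receptor rose. ITGA2B (CD41) had 94, 80 and 136 in CD43- and 8678, 5703 and 6697 in CD43+ cells, a difference of 6.09 ± 0.45 (SE), and ITGB3 (CD61) had 51, 76 and 36 in CD43- and 4610, 2896 and 3859 in CD43+ cells (6.14). All subunits of the von Willebrand factor receptor were higher, with GP1BA at 64, 40 and 60 in CD43- and 954, 842 and 939 in CD43+ cells (4.06), GP1BB at 3.68, GP9 at 4.20 and GP5 at 4.82 on the log2 scale. PF4, platelet factor 4 of the α-granules, measured 2, 2 and 1 in CD43- and 138, 120 and 108 in CD43+ cells (5.55), and the platelet tubulin gene TUBB1 7, 8 and 4 in CD43- and 253, 222 and 133 in CD43+ cells (4.79). Several granule genes were low in both populations: PPBP did not exceed 4 and F13A1 did not exceed 4 in any day 6 sample. VWF, made by both megakaryocytes and endothelium, measured 4478, 2534 and 972 in CD43- and 1192, 618 and 562 in CD43+ cells and was not called (-1.58, but -2.17 and called without CD43- replicate 3). The lower members were THBS1 (6360, 9888 and 6244 in CD43- and 1498, 1077 and 2106 in CD43+ cells, -2.28), a matrix protein of many cells as well as of platelets, and CLEC1B (20, 32 and 38 in CD43- and 4, 0 and 0 in CD43+ cells, -4.13), which is the podoplanin receptor.

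Myeloid genes were called at low values. Of 21 neutrophil and monocyte genes, 10 were higher and none lower, with a median of 1.64 and 6 listed at 0 in all CD43- samples. With a pseudocount of 10, 5 of the 21 were called and the median was 0.80. TYROBP, an adaptor of activating receptors, was listed at 0 in CD43- cells and measured 208, 116 and 109 in CD43+ cells. Its companion FCER1G measured 38, 16 and 2 in CD43- and 530, 426 and 385 in CD43+ cells (5.14), and the NADPH oxidase subunit NCF4 1, 0 and 0 in CD43- and 235, 154 and 124 in CD43+ cells (7.04). LYZ, lysozyme, measured 32, 26 and 30 in CD43- and 448, 436 and 365 in CD43+ cells (3.78). The granule genes were low: MPO measured 30, 14 and 10 in CD43+ cells and was at 0 in CD43- cells, and ELANE, S100A8 and MNDA were listed at 0 in all 6 samples. MPO is the myeloperoxidase of neutrophil granules. CSF3R, the G-CSF receptor, was higher by 3.00 and the macrophage receptor CSF1R by 4.97, at 13, 18 and 6 in CD43- and 658, 258 and 333 in CD43+ cells. Of 14 macrophage genes, 3 were higher (CSF1R, AIF1 at 3.28, and VSIG4, at 0 in CD43- cells) and 1 was lower (MSR1, 0, 0 and 0 in CD43+ and 1, 6 and 11 in CD43- cells, not called without CD43- replicate 3), and their median was 0.43. The complement gene C1QA and the scavenger receptor gene MARCO were listed at 0 in all 6 samples.

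Of 13 mast cell and eosinophil genes, 5 were higher and 1 lower, with a median of 1.02. HDC, histidine decarboxylase, which makes histamine, measured 2, 4 and 1 in CD43- and 1011, 1121 and 640 in CD43+ cells, a difference of 8.18 ± 0.52 (SE). CPA3, the mast cell carboxypeptidase, measured 0, 3 and 0 in CD43- and 98, 121 and 51 in CD43+ cells (5.75), and PRG2, the eosinophil major basic protein, 0, 8 and 3 in CD43- and 146, 71 and 58 in CD43+ cells (4.69). The tryptase gene TPSB2 was at 0 in all 6 samples. Of 12 lymphoid genes, 5 were higher (median 1.49). CD7 measured 2, 6 and 28 in CD43- and 300, 288 and 267 in CD43+ cells (5.07), and the other four did not exceed 54 in any sample. They were CD2, NKG7, CD3D and CD79A. CD3D measured 36, 4 and 1 and NKG7 41, 12 and 6 in CD43+ cells, so that replicate 1 carried most of the signal. Without it CD3D (1.66), NKG7 (2.59) and CD79A (1.51) were not called, and the list had 2 calls of 12. CD79A was also lost without CD43- replicate 1 or 2, after median-of-ratios scaling (1.89) and with a pseudocount of 0.1 (2.23). With the replicate block in a fit of the day 6 samples alone CD3D (2.84) and CD79A (2.04) were not called, with limma adjusted p of 0.0924 and 0.0789, and 3 of the 12 were called. CD3D was also lost in that fit without the block (2.84). With a pseudocount of 10 the lymphoid count was 1 of 12 and the mast cell and eosinophil count 3 of 13.

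Of 22 genes of the haematopoietic surface and of pan-leukocyte signalling, 13 were higher and 1 lower, with a median of 2.38. CD33, a myeloid lectin, measured 10, 8 and 12 in CD43- and 387, 350 and 295 in CD43+ cells (4.98). WAS, the actin regulator lost in Wiskott-Aldrich syndrome, measured 24, 22 and 10 in CD43- and 542, 504 and 438 in CD43+ cells (4.74). RAC2, a haematopoietic small GTPase, measured 163, 93 and 148 in CD43- and 1327, 1063 and 1081 in CD43+ cells (3.13). The signalling genes VAV1 (3.04), PTPN6 (2.99) and HCLS1 (2.77) and the lysosomal gene LAPTM5 (3.28) rose with them. CD34, the progenitor and endothelial antigen, measured 12844, 6366 and 2758 in CD43- and 3517, 2128 and 2826 in CD43+ cells and was not called (-1.14). CD44, the hyaluronan receptor, was not called either (0.60). The lower member, CD38, an enzyme of maturing blood cells, measured 8, 16 and 12 in CD43- and 1, 0 and 0 in CD43+ cells (-3.32).

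Because no haematopoietic cytokine was added, the receptors and ligands of this family were counted separately. Of 24 receptors and signalling genes, 6 were higher and 2 lower (median 0.43). Besides CSF1R and CSF3R, the higher members included the GM-CSF receptor chain CSF2RA (26, 34 and 64 in CD43- and 237, 259 and 316 in CD43+ cells, 2.77), the common γ chain gene IL2RG (2.54, no value above 22) and STAT5A (706, 526 and 354 in CD43- and 2996, 2360 and 2552 in CD43+ cells, 2.36), a transducer of these receptors. EPOR, the erythropoietin receptor, measured 490, 446 and 630 in CD43- and 867, 942 and 972 in CD43+ cells, with no overlap and a difference below the 4-fold limit (0.84). KIT, the receptor of stem cell factor, overlapped between the groups at 416, 328 and 146 in CD43- and 464, 374 and 222 in CD43+ cells (0.32, or -0.13 without CD43- replicate 3). The lower members were LIFR, the receptor of leukaemia inhibitory factor, at 12854, 8977 and 8802 in CD43- and 778, 524 and 744 in CD43+ cells (-3.90), and the kinase gene PIM1 (1837, 3268 and 2984 in CD43- and 254, 272 and 274 in CD43+ cells, -3.29).

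Among 13 cytokine ligands, 4 were lower in CD43+ cells and 1 was higher, with a median of 0.05. The CD43- cells held the larger values of CXCL12, the chemokine of progenitor niches (309, 580 and 318 in CD43- and 10, 16 and 10 in CD43+ cells, -4.92), of IL11 (271, 334 and 325 in CD43- and 6, 16 and 35 in CD43+ cells, -4.25) and of KITLG, or stem cell factor (1178, 634 and 518 in CD43- and 180, 82 and 92 in CD43+ cells, -2.71). TNF did not exceed 10 in any sample, and its call was lost without CD43+ replicate 2 or CD43- replicate 2, with a pseudocount of 10 (-0.59), and with the replicate block in a fit of the day 6 samples alone (-2.0, limma adjusted p 0.0672), which left 3 of the 13 lower. CSF1 measured 354, 478 and 749 in CD43- and 208, 232 and 254 in CD43+ cells, with no overlap but under the limit (-1.12). IL1B, the inflammatory cytokine, was the higher member at 2, 1 and 5 in CD43- and 122, 34 and 72 in CD43+ cells (4.36). EPO did not exceed 4 in any day 6 sample.

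**Figure D3:**
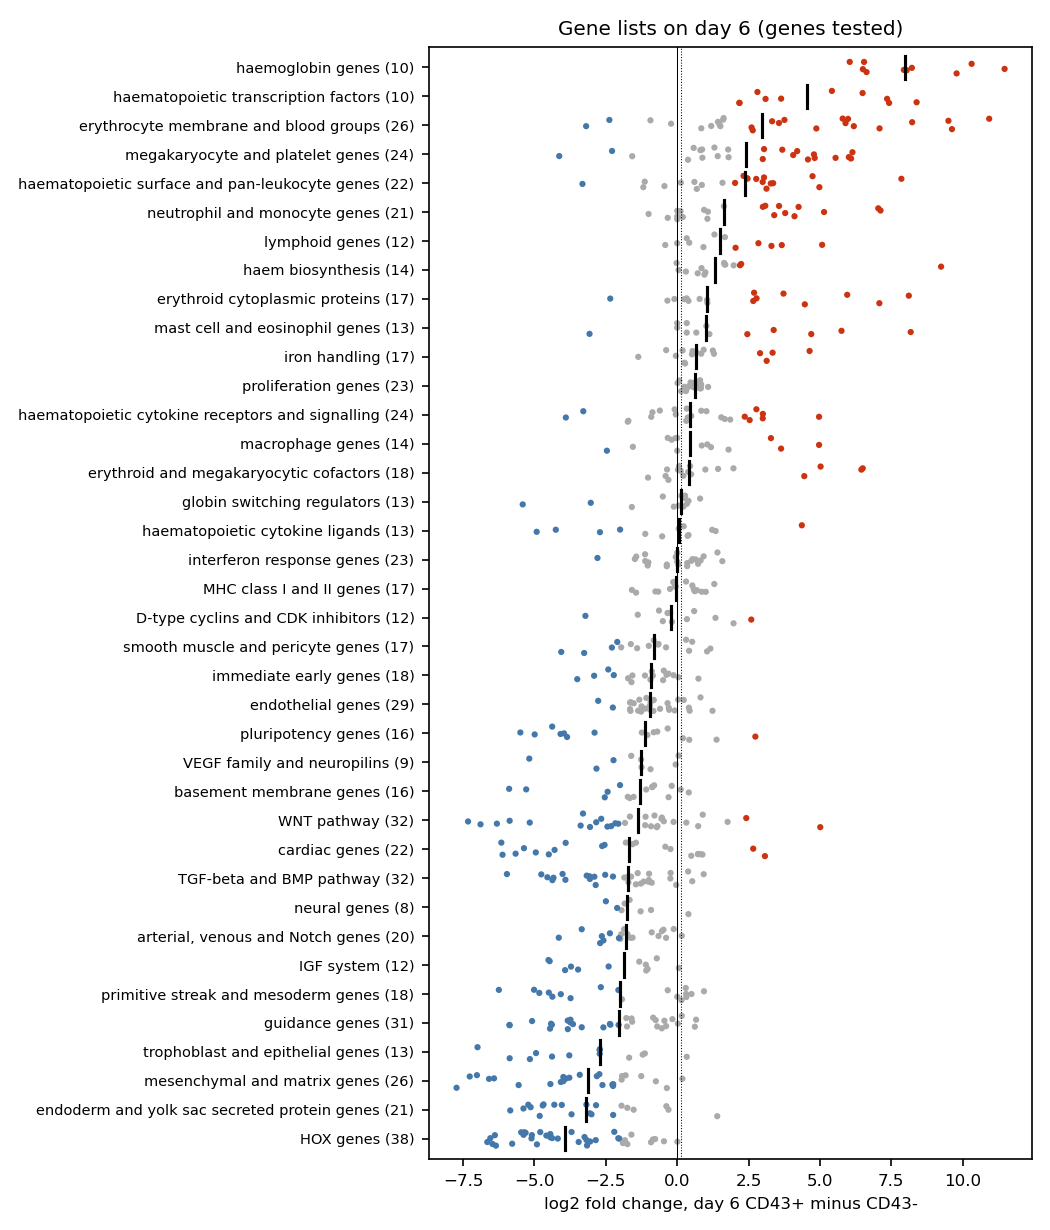
Log2 differences CD43+ minus CD43- of the genes of 38 lists on day 6. Each point is 1 gene, bars are list medians, and the dotted line is the median of all genes tested (0.14). The haemoglobin and transcription factor lists lie furthest to the higher side, and the HOX and endoderm lists to the lower side.

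Most endothelial genes were not called on day 6 at the 4-fold limit. Of 29, 2 were lower, beside 7.85% of all genes tested, and 27 were not called, with a median of -0.95. The 2 were SOX17, a regulator of arterial and haemogenic endothelium, at 3750, 2183 and 798 in CD43- and 575, 235 and 151 in CD43+ cells, a difference of -2.77 ± 0.56 (SE), and ROBO4, an endothelial guidance receptor, at 1278, 546 and 58 in CD43- and 216, 75 and 22 in CD43+ cells (-2.26), whose groups overlapped. The call of ROBO4 was lost without CD43- replicate 1 (-1.31) or 2 (-1.92) and without CD43+ replicate 3 (-1.43). KDR, the main VEGF receptor, measured 48030, 48030 and 17338 in CD43- and 15842, 15842 and 22812 in CD43+ cells (-0.93), and CDH5, or VE-cadherin, 25876, 10844 and 5254 in CD43- and 5644, 4481 and 6144 in CD43+ cells (-1.08). PECAM1 (CD31) measured 8083, 4430 and 2049 in CD43- and 5704, 5314 and 5641 in CD43+ cells, with all CD43+ values inside the CD43- range (0.41, or -0.11 without CD43- replicate 3). CD43- replicate 3 was lowest in all 5 of these genes. Without CD43- replicate 3, which held the lowest endothelial sum, 5 of the 29 genes were lower, with CLDN5, PLVAP and EMCN added. With a 2-fold limit 12 of the 29 were lower and 1 was higher, beside 2815 lower and 2554 higher of all 19788 genes. ETV2, which specifies blood and endothelial precursors, measured 180, 134 and 208 in CD43- and 260, 299 and 354 in CD43+ cells (0.81). RNA of endothelial genes was thus measured in both populations, and its part in the other differences was not tested.

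Arterial, venous and Notch genes had 7 of 20 members lower and none higher, with a median of -1.80. CXCR4, the receptor of CXCL12, measured 3838, 1492 and 444 in CD43- and 416, 72 and 14 in CD43+ cells (-4.15). UNC5B, a netrin receptor of tip cells, measured 12840, 6916 and 4657 in CD43- and 1612, 614 and 396 in CD43+ cells (-3.35), and the Notch receptor gene NOTCH4 5979, 2680 and 1096 in CD43- and 739, 328 and 262 in CD43+ cells (-2.70). NR2F2, or COUP-TFII, which sets venous identity, was even in CD43- cells at 421, 449 and 414 in CD43- and 48, 52 and 124 in CD43+ cells (-2.64). The other called members were HEY1 (-2.58), EFNB2 (-2.36) and JAG1 (-2.04). EFNB2 was not called without CD43- replicate 1 (-1.97), and JAG1 was not called without CD43+ replicate 1 (-1.88) or CD43- replicate 2 (-1.84). The count rose to 12 of 20 without CD43- replicate 3. Of 9 genes of the VEGF family and its receptors, 3 were lower (median -1.27): NRP1, the neuropilin coreceptor (22806, 9712 and 5244 in CD43- and 1982, 1178 and 1384 in CD43+ cells, -2.83), VEGFC (94, 149 and 140 in CD43- and 5, 6 and 0 in CD43+ cells, -5.18) and PGF (-2.23, -1.95 and not called without CD43- replicate 3). VEGFA measured 1547, 2176 and 5038 in CD43- and 643, 846 and 1091 in CD43+ cells (-1.61).

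Mesenchymal and matrix genes were mostly lower in CD43+ cells. Of 26 genes, 19 were lower and none higher, with a median of -3.12. POSTN, periostin, measured 10084, 10840 and 20424 in CD43- and 64, 62 and 56 in CD43+ cells, a difference of -7.73 ± 0.36 (SE) with an adjusted p of 3.9e-15. The small leucine-rich proteoglycans DCN (2177, 1624 and 5043 in CD43- and 12, 14 and 24 in CD43+ cells, -7.27) and LUM (17368, 18772 and 37186 in CD43- and 110, 182 and 274 in CD43+ cells, -7.02) and the collagen chain COL6A3 (37170, 48036 and 90700 in CD43- and 423, 484 and 876 in CD43+ cells, -6.59) followed. PRRX1, a transcription factor of limb and body wall mesenchyme, measured 904, 1900 and 1645 in CD43- and 11, 17 and 20 in CD43+ cells (-6.42), and PDGFRA, the receptor that marks paraxial and cardiac mesoderm, 1040, 1326 and 3045 in CD43- and 60, 71 and 198 in CD43+ cells (-4.08). The main fibrillar collagen genes were not so divided. COL1A2 measured 48056, 48056 and 48056 in CD43- and 37186, 48056 and 90700 in CD43+ cells and COL1A1 25836, 29000 and 37166 in CD43- and 18751, 18751 and 37166 in CD43+ cells, and neither was called (0.18, or -0.18 without CD43+ replicate 3, and -0.36). COL3A1, which reached the ceiling in all CD43- samples, varied widely among the CD43+ samples (1952, 5706 and 25870, -3.78). CD43+ replicate 3 held the largest value of COL1A1, COL1A2 and COL3A1. FN1, fibronectin, likewise at the ceiling in CD43- cells, measured 13327, 22847 and 22847 in CD43+ cells (-2.25), and its call was lost without CD43+ replicate 1 (-1.99). CDH2, or N-cadherin, differed by -2.24 and was not called without CD43- replicate 2 (-1.88).

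Of 16 basement membrane genes, 5 were lower (median -1.31). NID2, nidogen 2, measured 29004, 25842 and 48036 in CD43- and 492, 406 and 863 in CD43+ cells (-5.89), and LAMA4, a laminin chain of vessels, 2110, 989 and 98 in CD43- and 28, 16 and 6 in CD43+ cells (-5.29). COL18A1 (13311, 13998 and 15842 in CD43- and 17338, 17338 and 22812 in CD43+ cells) and LAMA5 (8964, 7766 and 9485 in CD43- and 9714, 8673 and 10075 in CD43+ cells) were not called. COL4A2, a chain of type IV collagen, was called at -2.0, and was not called without CD43+ replicate 2 (-1.81) or CD43- replicate 1 or 2 (-1.83 for each). Of 17 rows of smooth muscle and pericyte genes, 4 were lower (median -0.82): TPM1 (15847, 29004 and 29004 in CD43- and 1120, 1574 and 1616 in CD43+ cells, -4.06), ACTA2, smooth muscle actin (1620, 3320 and 1736 in CD43- and 174, 239 and 252 in CD43+ cells, -3.26), TAGLN (-2.29) and CALD1 (-2.10). Without CD43- replicate 2, TAGLN (-1.86) and CALD1 (-1.97) were not called and the count was 2. CALD1 was also lost without CD43+ replicate 1 (-1.97). The pericyte gene RGS5 measured 5254, 4332 and 3945 in CD43- and 4295, 6922 and 7165 in CD43+ cells and was not called (0.42).

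Cardiac genes were divided. Of 22, 10 were lower and 2 higher, with a median of -1.68. TNNT2, cardiac troponin T, measured 408, 632 and 1224 in CD43- and 6, 8 and 14 in CD43+ cells (-6.12), and ACTC1, cardiac actin, 9896, 22836 and 20418 in CD43- and 282, 546 and 422 in CD43+ cells (-5.37). HAND1, a factor of extra-embryonic and heart mesoderm, measured 5556, 5638 and 10436 in CD43- and 220, 254 and 502 in CD43+ cells (-4.50), and ISL1 of the second heart field 176, 304 and 163 in CD43- and 2, 10 and 8 in CD43+ cells (-4.95). The higher pair were MYL4, the embryonic and atrial myosin light chain (348, 550 and 842 in CD43- and 3574, 3654 and 3137 in CD43+ cells, 2.66), and TNNI3, cardiac troponin I (6, 16 and 27 in CD43- and 131, 117 and 126 in CD43+ cells, 3.07). GATA4 (388, 900 and 582 in CD43- and 156, 198 and 322 in CD43+ cells) and GATA6 (1164, 1226 and 2155 in CD43- and 1009, 1294 and 1439 in CD43+ cells) were not called. Of 18 genes of the primitive streak and mesoderm, 9 were lower (median -2.0), among them BMP4 (1870, 2588 and 3386 in CD43- and 112, 118 and 136 in CD43+ cells, -4.37), TCF21 (-6.25) and FOXF1 (404, 484 and 803 in CD43- and 10, 16 and 24 in CD43+ cells, -5.01), which pattern lateral mesoderm. The streak gene EOMES did not exceed 4 in any sample.

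Many genes of endoderm and of trophoblast and epithelium were lower in CD43+ cells. Of 21 genes of endoderm and yolk sac secreted proteins, 15 were lower, with a median of -3.18. AFP, α-fetoprotein, measured 162, 354 and 445 in CD43- and 2, 4 and 8 in CD43+ cells (-5.85), APOA2 136, 310 and 540 in CD43- and 6, 4 and 8 in CD43+ cells (-5.39) and the hepatocyte nuclear factor gene HNF4A 114, 274 and 286 in CD43- and 8, 2 and 14 in CD43+ cells (-4.82). APOE, expressed in many cell types, was even at 9714, 11186 and 13998 in CD43- and 8964, 9230 and 9714 in CD43+ cells (-0.31). Of 13 trophoblast and epithelial genes, 9 were lower (median -2.72). CDX2, a caudal factor of trophoblast and posterior embryo, measured 282, 350 and 438 in CD43- and 0, 6 and 2 in CD43+ cells (-7.00). The keratin gene KRT8 measured 48061, 90700 and 90700 in CD43- and 1448, 2012 and 2960 in CD43+ cells (-5.16), and CDH1, or E-cadherin, 708, 1292 and 1110 in CD43- and 13, 27 and 12 in CD43+ cells (-5.87). Of 8 neural genes, 2 were lower, OTX2 (22, 26 and 54 in CD43- and 2, 6 and 8 in CD43+ cells, -2.50) and NCAM1 (771, 828 and 1514 in CD43- and 190, 235 and 269 in CD43+ cells, -2.11), and the second was not called without CD43+ replicate 1 (-1.97) or CD43- replicate 3 (-1.80). The neural count was 4 without CD43- replicate 3. The summed level of the trophoblast and epithelial list was 74601, 129428 and 130513 in CD43- and 4936, 6007 and 7852 in CD43+ cells. That of the endoderm list was 13192, 18324 and 24319 and 9458, 9546 and 10195. The part of these cells in the CD43- values was not tested.

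Of 16 pluripotency genes, 7 were lower and 1 higher (median -1.14). POU5F1, or OCT4, measured 712, 1328 and 618 in CD43- and 40, 47 and 32 in CD43+ cells (-4.38), and NANOG 83, 174 and 76 in CD43- and 0, 4 and 6 in CD43+ cells (-4.99). No CD43+ value of these genes exceeded 47. SOX2 did not exceed 8 in any sample. GDF3, a TGF-β family ligand of pluripotent cells, went the other way at 134, 126 and 40 in CD43- and 516, 696 and 576 in CD43+ cells (2.74), and the methyltransferase gene DNMT3B measured 1678, 1513 and 1520 in CD43- and 4082, 3822 and 4332 in CD43+ cells (1.38).

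The HOX genes, which specify position along the body axis, were mostly lower in CD43+ cells. Of 38 tested, 29 were lower and none higher, with a median of -3.94, and 10 were listed at 0 in all CD43+ samples. By cluster, all 10 HOXA genes, 8 of 9 HOXC genes and all 9 HOXD genes tested were lower, and their highest value in any CD43+ sample was 12, 4 and 3, respectively. Of the 10 HOXB genes, 2 were lower, and the highest CD43+ value was 742. HOXA9, which supports progenitors, measured 212, 251 and 151 in CD43- and 4, 2 and 0 in CD43+ cells (-6.35), and HOXC8 207, 208 and 374 in CD43- and 3, 3 and 0 in CD43+ cells (-6.65). In the HOXB cluster HOXB4 measured 417, 352 and 457 in CD43- and 402, 390 and 432 in CD43+ cells (0.00, or -0.16 after median-of-ratios scaling) and HOXB2 742, 824 and 1358 in CD43- and 580, 742 and 732 in CD43+ cells (-0.47). HOXB8 measured 876, 702 and 966 in CD43- and 213, 232 and 228 in CD43+ cells (-1.90), just short of the limit, and was called at -2.03 without CD43- replicate 2. The called members were HOXB1 (84, 46 and 247 in CD43- and 0, 4 and 4 in CD43+ cells, -5.09) and HOXB13 (8, 12 and 14 in CD43- and 3, 1 and 2 in CD43+ cells, -2.06), the latter not called without CD43+ replicate 2 (-1.80) or CD43- replicate 3 (-1.91). HOXD10 was spread among CD43- samples at 53, 110 and 0, with 0 in all CD43+ samples, and was not called without CD43- replicate 2, nor in a fit of the day 6 samples alone, with or without the replicate block. Most HOXA, HOXC and HOXD values were low. With a pseudocount of 10, 17 of the 38 genes were called lower and the median was -1.83, so the counts by cluster above hold for a pseudocount of 1.

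**Figure D4:**
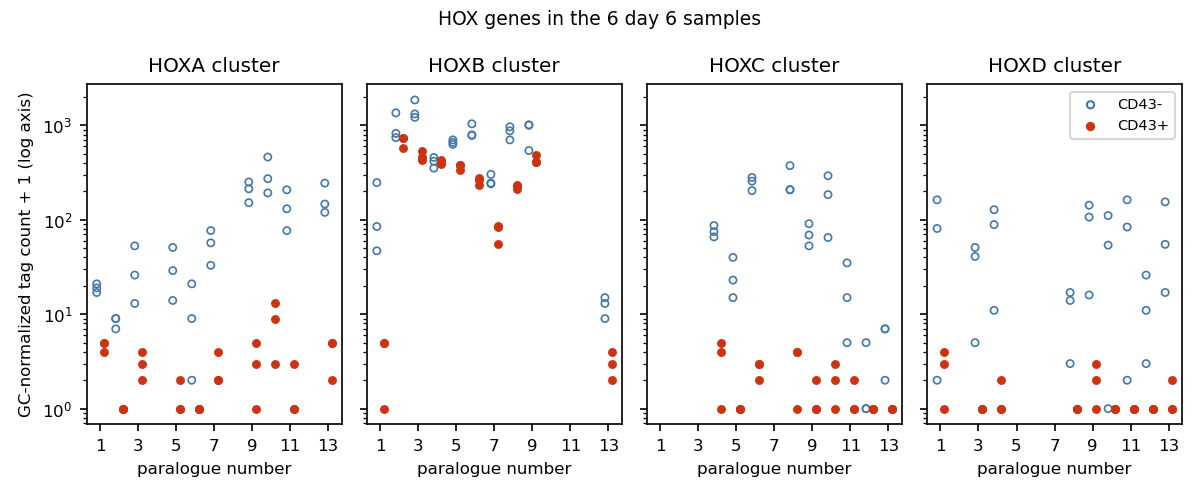
Deposited values + 1, on a log axis, of the HOX genes in the 6 samples of day 6, 1 panel per cluster. Points are samples, coloured by population. CD43+ points lie near 0 in the HOXA, HOXC and HOXD panels, whereas most HOXB genes have CD43+ values up to 742.

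Signalling genes were lower on balance. Of 32 genes of the TGF-β and BMP pathway, 14 were lower and none higher (median -1.72). Ligands included BMP4, BMP2 (786, 1020 and 1222 in CD43- and 97, 80 and 206 in CD43+ cells, -3.07) and TGFB2 (200, 358 and 178 in CD43- and 10, 12 and 10 in CD43+ cells, -4.33), and secreted antagonists included NOG, noggin (209, 342 and 270 in CD43- and 4, 3 and 3 in CD43+ cells, -5.97), and FST, follistatin (518, 544 and 1400 in CD43- and 26, 36 and 30 in CD43+ cells, -4.55). TGFB1, a ligand widely made by blood cells, measured 4496, 3701 and 2588 in CD43- and 6671, 6220 and 7132 in CD43+ cells without overlap (0.93). The receptor gene TGFBR1 was even (2512, 2619 and 2374 in CD43- and 2340, 2543 and 2433 in CD43+ cells). Of 32 WNT pathway genes, 14 were lower and 2 higher (median -1.39). The R-spondins, which amplify WNT signals, were among the largest falls: RSPO2 1102, 1505 and 2664 in CD43- and 8, 16 and 6 in CD43+ cells (-7.33), RSPO1 103, 123 and 258 in CD43- and 0, 1 and 0 in CD43+ cells (-6.89) and RSPO3 463, 742 and 1036 in CD43- and 6, 16 and 14 in CD43+ cells (-5.87). FRZB, a secreted antagonist, measured 3304, 3063 and 9499 in CD43- and 68, 50 and 53 in CD43+ cells (-6.32), and AXIN2, a target and feedback inhibitor, 739, 758 and 1304 in CD43- and 119, 109 and 151 in CD43+ cells (-2.84). The higher pair were SFRP5, a secreted frizzled-related protein (54, 68 and 146 in CD43- and 2616, 2486 and 2865 in CD43+ cells, 5.01), and FZD5, a frizzled receptor (221, 263 and 212 in CD43- and 1325, 1312 and 1092 in CD43+ cells, 2.42).

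Of 12 genes of the IGF system, 6 were lower (median -1.87). IGF2, the fetal growth factor, measured 29000, 22812 and 48030 in CD43- and 1909, 1456 and 3241 in CD43+ cells (-3.93), and the binding protein IGFBP3 6922, 6144 and 12018 in CD43- and 510, 310 and 271 in CD43+ cells (-4.51). Of 31 guidance genes, 16 were lower and none higher (median -2.05). SLIT2, the ligand of ROBO receptors, measured 9246, 9726 and 17368 in CD43- and 237, 202 and 158 in CD43+ cells (-5.88), EPHA7, an ephrin receptor, 1664, 1636 and 5642 in CD43- and 34, 50 and 42 in CD43+ cells (-5.87) and the semaphorin SEMA3A 869, 1050 and 2722 in CD43- and 54, 58 and 82 in CD43+ cells (-4.39). Their groups did not overlap. The receptor genes PLXND1 (20394, 15842 and 8264 in CD43- and 11996, 11186 and 13998 in CD43+ cells) and EPHB4 (4783, 4608 and 3652 in CD43- and 4114, 4960 and 5482 in CD43+ cells) were not called.

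The table also holds genes that are not protein-coding in GENCODE v29. Of 1596 antisense genes, 7.08% were higher and 3.88% lower, and of 1380 long intergenic RNAs 6.3% and 4.2%, beside 4.69% and 7.85% of all genes. Of 16324 protein-coding genes, 697 were higher and 1411 lower. The strand that the counting used is not stated in the sources used here, so reads of an antisense gene and of its overlapping partner cannot be told apart. The largest rise was the row named MIR142 (chr17:58330884-58332508, GRCh38), at 0, 2 and 0 in CD43- and 421, 460 and 271 in CD43+ cells, a difference of 8.02 ± 0.64 (SE). It is an antisense gene that hosts the hairpin of miR-142, a microRNA of blood cells. The libraries measured the host RNA and not the mature microRNA. Both mature sequences from RefSeq are shown because they identify the product encoded within this row, with the seed (bases 2 to 8) in capitals. They have different seeds.

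hsa-miR-142-3p (chr17:58331245-58331267, minus strand, GRCh38.p14): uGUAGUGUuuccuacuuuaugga
hsa-miR-142-5p (chr17:58331283-58331303, minus strand, GRCh38.p14): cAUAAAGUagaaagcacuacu

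The MIR142 row lies within TSPOAP1-AS1, which was higher too (10, 10 and 10 in CD43- and 672, 768 and 741 in CD43+ cells, 6.05). RP11-830F9.5 (0, 0 and 1 in CD43- and 146, 146 and 146 in CD43+ cells, 6.87) lies within CBFA2T3, and RP13-786C16.1 (0, 0 and 1 in CD43- and 84, 81 and 62 in CD43+ cells, 5.91) within LMO2, both of which were higher. LINC00861 measured 0, 1 and 0 in CD43- and 132, 83 and 104 in CD43+ cells (6.39). Among the falls, C5orf66-AS1 was listed at 0 in all CD43+ samples against 94, 92 and 180. FENDRR, a long RNA transcribed divergently from the FOXF1 locus, measured 127, 138 and 314 in CD43- and 0, 2 and 3 in CD43+ cells (-6.28), beside the fall of FOXF1. IGF2-AS, antisense to IGF2, measured 251, 304 and 615 in CD43- and 3, 8 and 14 in CD43+ cells (-5.47), beside the fall of IGF2. AC012531.25 (-5.24) and CTB-158E9.1 (-5.66) complete the 5 largest falls.

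Whether the day 6 differences were the same at later sorts was tested by the change of the difference, day 9 or day 12 minus day 6, in the same fit. Both changes share the day 6 samples, and a change can come from either population. From day 6 to day 9 the difference changed for 1463 genes (7.39%), upwards for 635 (3.21%) and downwards for 828 (4.18%). From day 6 to day 12 it changed for 3651 genes (18.5%), 1671 upwards (8.44%) and 1980 downwards (10%). Of the 10 haemoglobin genes, 1 changed upwards to day 9, beside 3.21% of all genes. To day 12, 3 of them changed downwards, beside 10% of all genes. Of 26 erythrocyte membrane genes, 5 changed upwards and 1 downwards to day 9. To day 12, 1 changed upwards and 12 downwards, beside 8.44% and 10% of all genes. Their median difference was 2.98, 4.21 and 1.97 on days 6, 9 and 12. For ALAS2 the differences of days 6, 9 and 12 were 9.24, 9.21 and 7.15 (change to day 12 -2.09, but 0.97 with a pseudocount of 0.1, and -1.99, -1.82 and -1.94 and not called without CD43+ replicate 2 or CD43- replicate 3 of day 6 or CD43+ replicate 3 of day 12). The change was also not called after median-of-ratios scaling (-1.91). GATA1 was at 8.38, 8.92 and 8.01, with no change called.

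Myeloid genes changed upwards. Of the 21 neutrophil and monocyte genes, 12 changed upwards to day 9 and 17 to day 12, and none changed downwards. PRTN3, proteinase 3, measured 0, 1 and 0 in CD43- and 0, 0 and 2 in CD43+ cells on day 6 and had a difference of 9.71 on day 9 (change 9.52). RNASE2, an eosinophil ribonuclease that was lower in CD43+ cells on day 6 (6, 4 and 16 in CD43- and 0, 0 and 0 in CD43+ cells), had differences of 5.87 on day 9 and 8.03 on day 12 (changes 8.94 and 11.10). IRF8, a factor of monocytes and dendritic cells, also turned from lower on day 6 (10, 34 and 6 in CD43- and 0, 0 and 0 in CD43+ cells) to higher on day 9 (5.36, change 9.16). MNDA was listed at 0 in all day 6 samples and had a difference of 10.76 on day 12 (change 10.76). PTPRC changed by 6.50 from day 6 to day 9, and KIT by 3.19. PF4V1, a platelet chemokine gene, changed by 8.14. OLFM4, a neutrophil granule gene, changed by 10.96 to day 12. The sizes of the changes of RNASE2, IRF8, MNDA and PF4V1 depend on the pseudocount, since these genes were listed at 0 in all samples of at least 1 population of day 6. PRTN3 did not exceed 2 in any day 6 sample, so the size of its change depends on the pseudocount too. For OLFM4 the day 6 difference was -1.58 and not called, but -2.92 and called with a pseudocount of 0.1. With a pseudocount of 10 IRF8 (-1.27) and RNASE2 (-0.85) were not called on day 6.

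Endothelial and mesenchymal genes that passed the test of the change moved mostly downwards. Of the 29 endothelial genes, 10 changed downwards to day 9 and 15 to day 12, beside 4.18% and 10% of all genes. Upward changes were called for 1 of them to day 12 and for none to day 9. KDR changed by -2.12, CDH5 by -2.90, FLT1, a decoy VEGF receptor, by -3.89 and CLDN5, a tight junction protein, by -3.92 from day 6 to day 9. The median difference of the list was -0.95 on day 6. The change of KDR was between -1.94 and -1.63 and not called without CD43+ or CD43- replicate 3 of day 6, CD43+ replicate 2 of day 9 or CD43- replicate 1 of day 9. Of the 26 mesenchymal and matrix genes, 12 changed downwards and 1 upwards to day 9, and 14 downwards and 1 upwards to day 12. COL1A1 and COL1A2, which had not been called on day 6, changed by -4.64 and -4.38, and FN1 by -4.44. The cadherin gene CDH11 measured 4710, 7766 and 7152 in CD43- and 2743, 3108 and 6460 in CD43+ cells on day 6 and changed by -6.78, and RGS5 by -6.50. HAPLN1, a hyaluronan link protein, was measured at 29026, 25870 and 18772 in CD43- and 12014, 22842 and 37186 in CD43+ cells on day 6 (-0.16) and changed by -6.17 to day 9. RELN, or reelin, was measured at 4480, 5136 and 15868 in CD43- and 48056, 37186 and 12848 in CD43+ cells on day 6 (1.99, and called at 2.56 or 2.57 without CD43+ or CD43- replicate 3) and changed by -8.52 to day 12. No HOX gene changed to day 9, and the list's median change was -0.33.

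**Figure D5:**
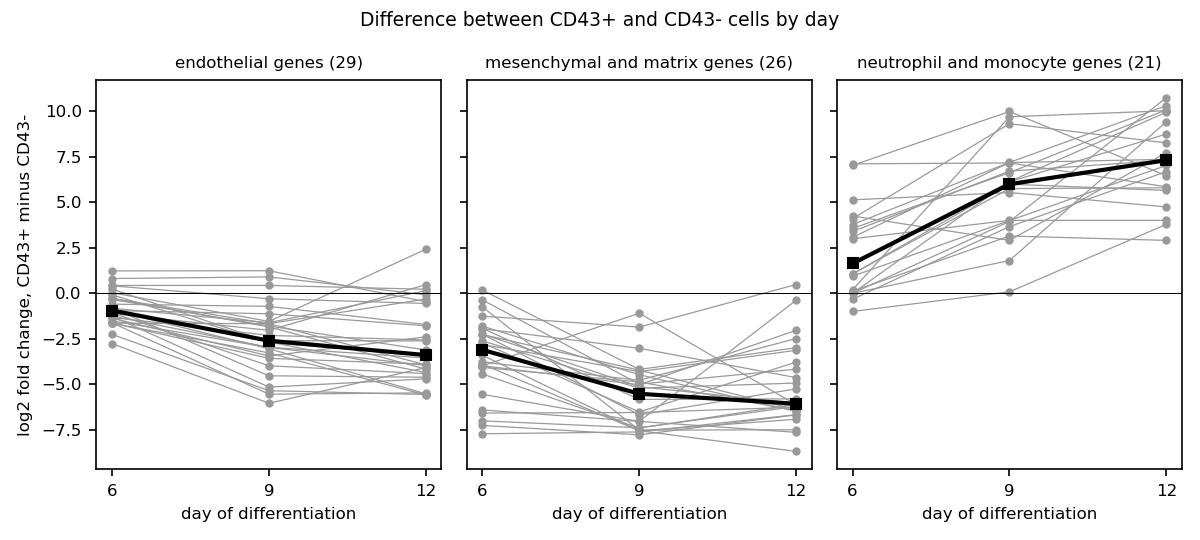
Log2 differences CD43+ minus CD43- on days 6, 9 and 12 for the endothelial, mesenchymal and matrix, and neutrophil and monocyte lists. Each line is 1 gene and the black line is the list median. The endothelial median is -0.95 on day 6 and lower on both later days, and the neutrophil and monocyte median is 1.64 on day 6 and higher on both.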

How the data were processed

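RNA from CD43+ and CD43- cells sorted on day 6 was sequenced in 3 replicates each. Per the methods of the study, the authors aligned and counted reads with RSEM and bowtie2 on hg38 and normalised them for GC content with EDASeq by full quantiles. The submitters' processing notes also name STAR 2.7. The deposited values are a score, namely tag counts that the authors normalised for GC content and between samples and rounded to whole numbers, and not raw counts, since the sorted values were identical in all 34 samples, with a total of 17856940 in each. Depth and counting precision are therefore unknown, and a count model was not used. The GC percent column deposited by the authors was not used. No library was marked as a batch in the labels. The methods name RiboBio and Annoroad Gene Technology as sequencing providers and do not say which samples each of them ran. A difference between providers was not tested.

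The 33 replicated samples were fitted together in limma 3.58.1 (R 4.3.3, lmFit and eBayes with trend) on log2(value + 1), with 11 populations and no block. Genes with at least 10 in at least 3 of the 33 samples were tested (19788, with 467 left out). Calls needed a Benjamini-Hochberg adjusted p below 0.05 over all genes tested and a fold above 4, the limits of the study. The p-values rest on the spread between replicates, pooled for each gene over the 11 populations. An exact permutation test of 3 against 3 cannot give a two-sided p below 0.1 and was not used. The fitting code was tested on simulated data.

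Replicate numbers are shared by both populations. On day 6 deviations from the group means correlated between same-numbered samples (Pearson's r 0.198, 0.109 and 0.199), so that the numbers were taken to pair the samples, from the data alone and not from a label. The main fit did not use this pairing, and the replicate block was run as an alternative. On day 9 the correlations were 0.017 to 0.078 and on day 12 0.039 to 0.108.

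Named genes were the sorted proteins, members of 38 lists (first those with the largest differences in each direction among called genes), the 12 largest rises and falls among called genes without overlap, the 5 largest of each among non-coding genes, and the largest changes of the difference to days 9 and 12. Some genes that this rule names are not reported here. The comparison and the lists were chosen with earlier results of these data known. CLDN5, PLVAP, EMCN and TAP1 were named after their values were seen. Of 20255 gene IDs, 20148 were found in GENCODE v29, which gave gene types. RefSeq promoters (GRCh38.p14) were matched by gene ID, or else by symbol, for 12961 of the genes tested. Alternatives were other pseudocounts, filters, fold limits, scaling, fits, the replicate block and leaving out each replicate. A test on protein-coding genes alone was added after seeing the data.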

Additional observations from a re-analysis of the deposited data

Results flagged for a closer look

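The difference between CD43+ and CD43- cells changed between days in the test of the difference itself, from day 6 to day 9 for 1463 genes and from day 6 to day 12 for 3651 genes. Both tests use the same day 6 samples, so they are not independent of each other. Each gene below passed that test in limma, and values are changes of the log2 difference.

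From day 6 to day 9 the change was upwards for PRTN3 (9.52), IRF8 (9.16), RNASE2 (8.94), PF4V1 (8.14), PTPRC (6.50) and KIT (3.19). It was downwards for the matrix, adhesion and pericyte genes CDH11 (-6.78), RGS5 (-6.50), HAPLN1 (-6.17), COL1A1 (-4.64), FN1 (-4.44) and COL1A2 (-4.38). The endothelial genes CLDN5 (-3.92), FLT1 (-3.89), CDH5 (-2.90) and KDR (-2.12) also changed downwards.

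From day 6 to day 12 the change was upwards for RNASE2 (11.10), OLFM4 (10.96) and MNDA (10.76). It was downwards for RELN (-8.52) and for the red cell gene ALAS2 (-2.09). The calls of the changes of ALAS2 and KDR were lost under alternatives given above. For RNASE2, IRF8, MNDA, PF4V1 and PRTN3 the size of the change depends on the pseudocount, as given above.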

How the results depend on the processing

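Of 269 named differences and changes, 195 had the same direction and call under every alternative run for them. The count of called genes was 2404 to 2561 on day 6 when each replicate was left out in turn, 1248 to 1421 for the change to day 9 and 3501 to 3724 for the change to day 12. With a pseudocount of 10 the day 6 count was 1458 (473 higher, 985 lower), the change to day 9 869 (387, 482) and the change to day 12 2400 (1092, 1308). With a 2-fold limit these were 5369 (2554, 2815), 2476 (1053, 1423) and 6151 (2968, 3183). With a filter of 100, 602 genes were higher on day 6. Low genes lost their calls with a pseudocount of 10, among them AHSP, MPO, CD38, OTX2 and CLEC1B. In a fit of the day 6 samples alone CXCR4 and ROBO4 were not called. Median-of-ratios scaling moved the share of higher calls on day 6 from 37.4% to 31.7%. With the replicate block in the fit of all populations 2486 genes were called on day 6 and no named call changed. In a fit of day 6 alone the block gave 2320 calls, and 4 named calls were lost (CD3D, HOXD10, TNF and CD79A). HOX genes then had 25 of 38 called lower and the endoderm list 13 of 21. With a filter of 100, 18 of the 26 HOX genes tested were called.

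Directions turned, in genes not called on day 6, under median-of-ratios scaling for LAMA5 (-0.05), EPHB4 (-0.01), HOXB4 (-0.16), LIN28B (-0.03) and BIRC5 (-0.15). Leaving out each day 6 replicate in turn gave a range across 0 for PECAM1 (-0.11 to 0.88), KIT (-0.13 to 0.62), PTPRC (-0.03 to 1.56), COL1A2 (-0.18 to 0.46), HAPLN1 (-0.54 to 0.27), GATA6 (-0.40 to 0.05), PLXND1 (-0.54 to 0.11), LIN28B (-0.06 to 0.35), HOXB4 (-0.10 to 0.09), BPGM (-0.25 to 0.04), BIRC5 (-0.21 to 0.15) and ALAS1 (-0.15 to 0.06). The change of ALAS2 to day 12 was 0.97 with a pseudocount of 0.1. The cause of these shifts was not tested.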

Other observations

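Of 23 proliferation genes none passed both limits, their median difference was 0.62 beside 0.14 over all genes, and 14 had all CD43+ values above all CD43- values, as 33.9% of all genes tested did. MCM2, a helicase subunit of DNA replication, measured 1826, 2810 and 2653 in CD43- and 5318, 5254 and 4615 in CD43+ cells (1.08), whereas BIRC5, or survivin, was even at 881, 1371 and 1452 in CD43- and 1116, 1379 and 1170 in CD43+ cells (0.01). CD43- replicate 1 held the lowest summed value of the list (28535, 43257 and 40675 in CD43- cells), and the CD43+ sums were 58293, 60872 and 50788. Of 12 D-type cyclins and CDK inhibitors, 1 was higher and 1 lower, beside 4.69% and 7.85% of all genes tested, with a median of -0.22. CCND3, the cyclin of erythroid and lymphoid cells, measured 702, 810 and 784 in CD43- and 4478, 4478 and 4900 in CD43+ cells (2.59). CCND1 measured 3080, 3716 and 3241 in CD43- and 1236, 1011 and 1674 in CD43+ cells (-1.38), and the inhibitor gene CDKN2B 238, 322 and 49 in CD43- and 18, 22 and 10 in CD43+ cells (-3.22). Another inhibitor gene, CDKN2D, was higher in CD43+ cells and just under the 4-fold limit (1.97). It was called higher when CD43- replicate 2 was left out (2.2).

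Immediate early genes had 4 of 18 members lower and none higher (median -0.92): ATF3 (2262, 2860 and 5029 in CD43- and 268, 236 and 350 in CD43+ cells, -3.50), EGR2 (-2.91), FOSL2 (-2.42) and EGR1 (6364, 5406 and 8797 in CD43- and 1253, 1132 and 2097 in CD43+ cells, -2.22). FOS was not called (13287, 13963 and 18714 in CD43- and 7132, 7007 and 9860 in CD43+ cells, -0.94). Of 23 interferon response genes, 1 was lower and none higher, beside 7.85% and 4.69% of all genes, with a median of 0.00. The lower member was IFIT1 (114, 79 and 306 in CD43- and 22, 15 and 22 in CD43+ cells, -2.79). With a 2-fold limit 7 of the 23 were lower and 2 higher, beside 2815 lower and 2554 higher of all 19788 genes. None of 17 MHC class I and II genes was called, with a median of -0.05. The peptide transporter gene TAP1 (-1.44) was called without CD43- replicate 1 (-2.15). HLA-B measured 1690, 1357 and 1146 in CD43- and 519, 370 and 501 in CD43+ cells (-1.59). From day 6 to day 12 the difference changed upwards for 11 of the 17 MHC genes, beside 8.44% of all genes tested.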
